A study of Danio rerio with 8 samples.

Results

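Iridophore cluster c1 (194 cells) was compared with iridophore cluster c5 (72 cells), out of 646 cells in 5 clusters. The study compared stripe and interstripe skin of zebrafish, and by its account c5 was drawn mostly from stripes while c1 was drawn from both bands. The comparison asks how these clusters, which both hold stripe cells, differ from each other. It covers the 1706 of 19914 genes detected in 10% or more of the cells of c1 or of c5. For each gene 3 measures were taken as c5 minus c1, namely the percent of cells with the gene, the mean of the cells that have it, and the mean over all cells with the others at 0. Both means are in units of the natural log of a depth-corrected transcript count plus 1 (ln units). The cells were sorted from flank dermis of untreated adult fish carrying pnp4a:palmmCherry and pnp4a:nlsEos, both under the promoter of pnp4a, an iridophore gene, which therefore helped to choose the cells. Stripe (dark) and interstripe (light) skin filled 4 plates each, and the skin of several fish was pooled before sorting.

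Each cluster pools all plates, so it is 1 sample, cells are not replicates, and no test between fish or plates could be made. SDs are over cells, and the exact Clopper-Pearson 95% intervals on shares cover counting error only. Since clustering used these same expression values, each difference between c1 and c5 is a description. Because the clusters also differ in their mix of stripe and interstripe plates, skin band, plate and cell state cannot be told apart here. Cells had 789 genes detected on average in c1 and 815 in c5.

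Iridophores are pigment cells of the neural crest whose color comes from stacks of purine crystals, mostly guanine, that reflect light. In zebrafish they are loosely spread over the melanophores of the stripes and form a dense sheet in the interstripes. AP-1 factors, dimers of Fos, Jun and related proteins, belong to the immediate early genes, which cells transcribe within minutes of a signal and whose products are short-lived. Among their usual companions are factors that shorten the life of messenger RNA and inhibitors that switch the signal off again. By the study's methods, the skin was digested with an enzyme, broken up by pipetting and sorted before the cells were lysed. The part of this handling in the values of early genes was not tested.

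Both clusters carried the iridophore markers at similar levels. The gene gpnmb (ENSDARG00000062688), which encodes a pigment organelle glycoprotein, was detected in 91.2% of c1 cells (interval 86.3 to 94.8%) and 88.9% of c5 cells (79.3 to 95.1%), and its means over all cells were 3.33 ± 1.72 and 3.15 ± 1.65 (SD). The share for pnp4a, a purine nucleoside phosphorylase gene, was 79.4% in c1 and 79.2% in c5. The homeobox genes alx4a and alx4b were detected in 55.2% and 40.2% of c1 cells and in 50.0% and 31.9% of c5 cells. The transcription factor gene tfec had shares of 17.5% and 11.1%. All 5 marker means were lower in c5, by 0.13 (alx4a) to 0.39 (alx4b), none reached 0.5, and the median difference was -0.17, against 0.05 over all 1706 genes. Of the xanthophore and melanophore markers, 3 passed the filter. The melanophore channel gene trpm1b was frequent in both clusters, with 69.6% of c1 cells and 72.2% of c5 cells, while the xanthophore markers pax7a and scarb1 had 11.3% and 10.3% in c1 and 6.94% each in c5. The xanthophore gene aox5 was detected in 5.15% of c1 cells and in 0 of 72 c5 cells (interval 0 to 4.99%). The melanophore gene mitfa was detected in 1.03% of c1 cells and in 0 of 72 c5 cells.

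Most genes differed little between the clusters, and the larger differences lay on the side of c5. By the mean over all cells, 61 genes (3.58%) were higher in c5 by 0.5 or more and 11 genes (0.645%) were higher in c1 by as much. By share, 49 genes (2.87%) were detected in at least 15 percentage points more c5 cells and 14 (0.821%) in at least 15 points more c1 cells. By the mean of expressing cells, 46 (4.34%) of the 1061 genes with 10 or more such cells in each cluster were higher in c5 by 0.75 or more, and 21 (1.98%) were higher in c1. All 10 genes with a difference of means of 1 or more were higher in c5. The middle 90% of the differences of means ran from -0.26 to 0.41, while the SD over cells of a typical gene was 0.96 in c1 and 1.03 in c5. The bulk of genes was also shifted slightly toward c5, where 1045 of the 1706 genes had the higher mean. With the differences centred on their median, 51 genes were higher in c5 and 17 in c1 by mean, and 37 and 27 by share.

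**Figure D1:**
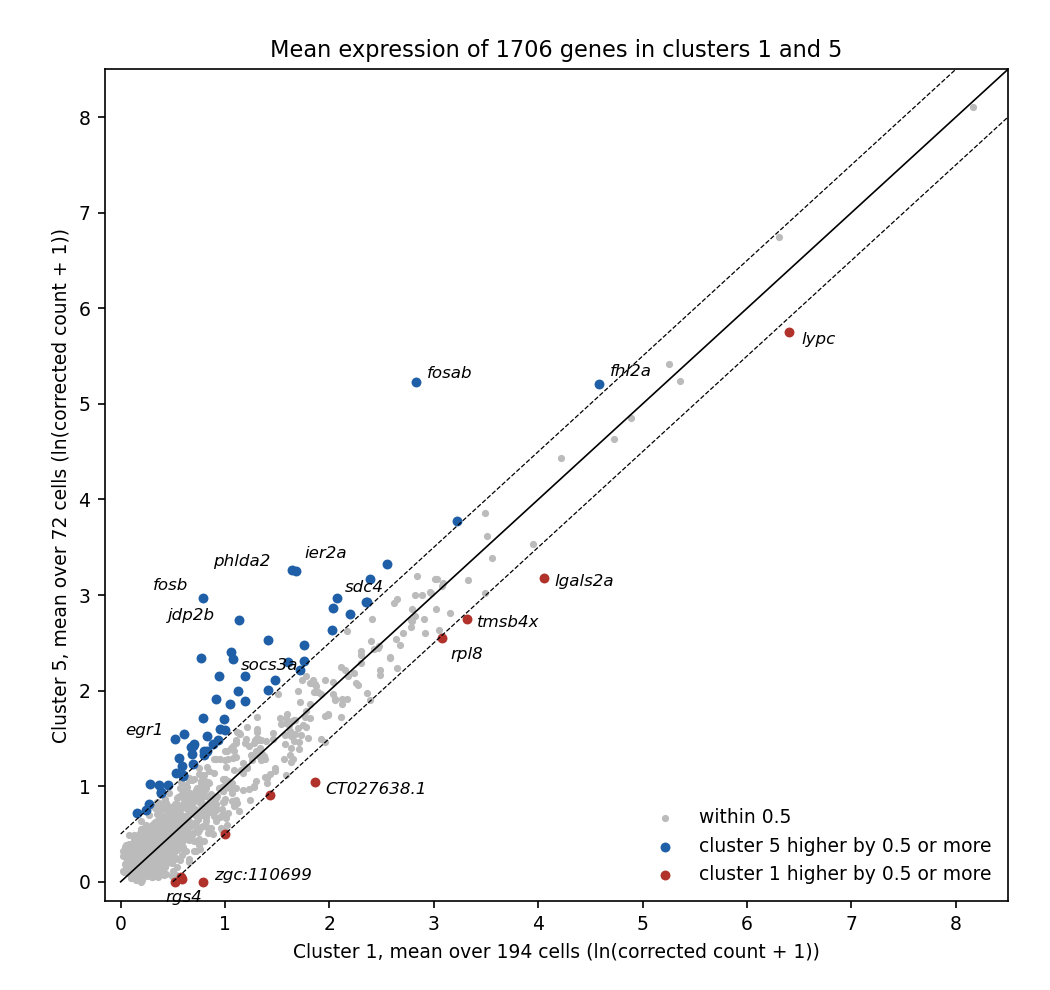
Mean over all cells of 1706 genes in c1 (horizontal axis) and c5 (vertical axis), in ln(corrected count + 1). The dashed lines mark a difference of 0.5. The 61 blue points lie above them, with fosab and fosb farthest away, and the 11 red points, among them lypc and lgals2a, lie below.

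Of the 1706 genes, 1087 reached 10% of cells in both clusters, 249 in c1 alone and 370 in c5 alone. A gene that passed through one cluster alone necessarily had the larger share there. The limit is easier to meet in c5, where 8 cells pass it, than in c1, where 20 cells are needed. Among genes below 10% in the other cluster, 144 stood just inside the limit at 8 c5 cells with a median difference of 0.11, and 217 just outside it at 7 cells with a median of 0.08. At the limit of c1 there were 32 genes at 20 cells and 59 at 19 cells, with medians of -0.11 and -0.09.

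The Fos and Jun genes gave the largest differences between the clusters. Their list held 14 genes of the table, 8 of which passed the filter, and 7 of these 8 were higher in c5 by 0.5 or more (3.58% of all genes were). None was higher in c1, and the median difference of the 8 was 1.16. The 7 include fosl1a, which passed through c5 alone. Over members with 10% of cells in both clusters the median was 1.21. The gene fosab (ENSDARG00000031683), the zebrafish c-Fos gene, was detected in 83.0% of c1 cells (76.9 to 88.0%) and 95.8% of c5 cells (88.3 to 99.1%). Its level in the cells that had it was 3.41 ± 1.86 in c1 and 5.45 ± 1.44 in c5, and its mean over all cells was 2.83 ± 2.12 in c1 and 5.23 ± 1.78 in c5. That difference of 2.39 was the largest of any gene compared. Since most c1 cells had fosab as well, 1.83 of the 2.39 came from the level in expressing cells and 0.57 from the share of cells.

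The paralog fosb (ENSDARG00000055751) differed mainly in how many cells had it. It was detected in 29.9% of c1 cells (23.5 to 36.9%) and 77.8% of c5 cells (66.4 to 86.7%), a gap of 47.9 points that no other gene reached. The expressing cells had levels of 2.63 ± 1.33 in c1 and 3.82 ± 1.31 in c5, and the means over all cells were 0.79 ± 1.41 and 2.97 ± 1.97. The share of cells accounted for 1.54 of the difference of 2.18. In fosl1a (ENSDARG00000015355), a Fos-like gene, the share alone differed, with 9.28% of c1 cells and 30.6% of c5 cells against levels of 2.65 ± 1.44 and 2.47 ± 1.35 in the cells that had it.

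The Jun partners followed the same direction at smaller sizes. The gene junbb (ENSDARG00000104773) was detected in 36.6% of c1 cells (29.8 to 43.8%) and 65.3% of c5 cells (53.1 to 76.1%), at means of 0.95 ± 1.45 and 2.15 ± 1.88. Its paralog junba had the same share of 36.6% in c1 and 61.1% in c5 (means 0.91 ± 1.49 and 1.91 ± 1.81). The gene jun (ENSDARG00000043531), for c-Jun, went from 44.8% to 66.7% of cells, with means of 1.41 ± 1.84 and 2.53 ± 2.15. JunD is the family member that cells usually make at a steady rate, and its gene jund had shares of 11.3% in c1 and 12.5% in c5 and a difference of means of only 0.09. In mammals the Jun dimerization protein JDP2 represses AP-1 targets. Its gene jdp2b (ENSDARG00000020133) was detected in 42.8% of c1 cells (35.7 to 50.1%) and 75.0% of c5 cells (63.4 to 84.5%), at means of 1.13 ± 1.61 and 2.74 ± 1.98. The other members of the list, atf3, fosl2, fosaa, jdp2a, fosl1b and maff, were detected in under 10% of cells of both clusters, with differences between -0.06 (maff) and 0.12 (atf3).

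**Figure D2:**
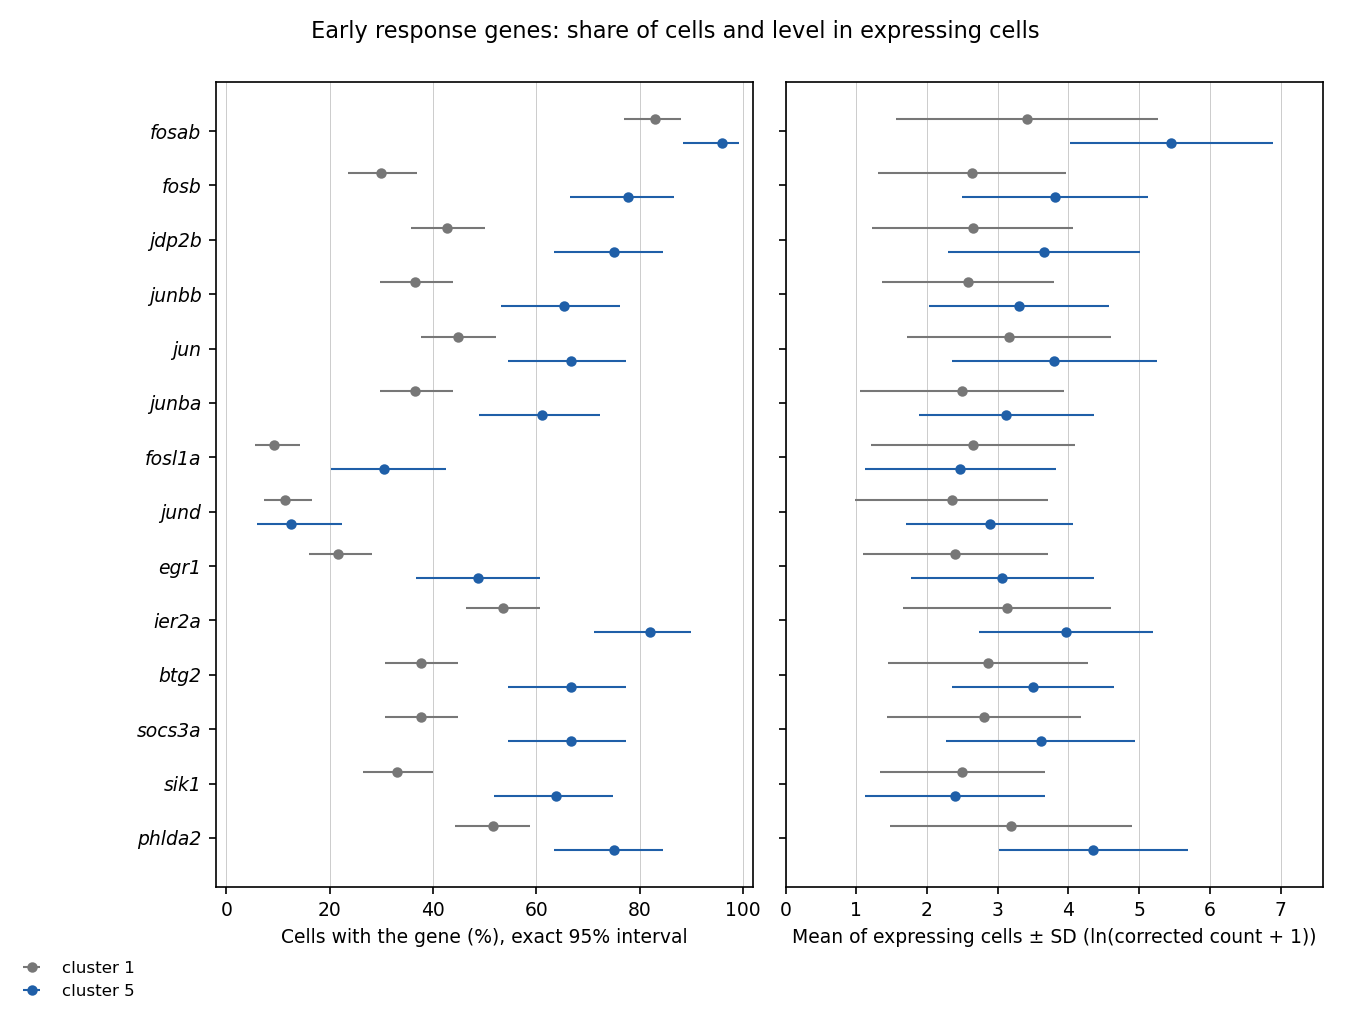
Share of cells with each gene (left, exact 95% intervals) and mean of expressing cells ± SD in ln(corrected count + 1) (right) in c1 (grey) and c5 (blue). The 14 genes are from the lists of early genes and signal inhibitors, and phlda2 is also on that of iridophore differentiation. For fosb and jdp2b the intervals of the shares lie far apart, those of jund overlap, and fosab is set apart mostly by its level of 5.45 in c5 against 3.41 in c1.

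Other immediate early factors were fewer. Of 22 Egr, Klf and Nr4a genes in the table, 4 passed the filter. Of these, 2 were higher in c5 by 0.5 or more (3.58% of all genes were). The median of the 4 was 0.29, but it was 0.03 with a limit of 5% of cells and 0.77 with 25%. The zinc finger gene egr1 (ENSDARG00000037421), which growth factors induce, was detected in 21.6% of c1 cells (16.1 to 28.1%) and 48.6% of c5 cells (36.6 to 60.7%), at means of 0.52 ± 1.16 and 1.49 ± 1.78. The share for klf6a, a Krüppel-like factor, was 32.0% in c1 and 48.6% in c5, and the intervals of 25.5 to 39.0% and 36.6 to 60.7% overlapped. The other members that passed, klf11b and klf7b, differed by 0.02 and -0.09. Nuclear receptor genes of the Nr4a group are classical early genes too, and each of them stayed under 10% of cells, among them nr4a1 with 3.61% in c1 and 4.17% in c5.

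A further list of early genes was drawn up around growth arrest and message decay, though not every member has such a role. It included 4 genes higher in c5 by 0.5 or more (3.58% of all genes were). Of the 14 genes of this list that passed the filter, 12 had the higher mean in c5 (as had 1045 of all 1706). The median was 0.28, and 0.14 with a limit of 5% of cells. The immediate early gene ier2a (ENSDARG00000099195) was detected in 53.6% of c1 cells (46.3 to 60.8%) and 81.9% of c5 cells (71.1 to 90.0%), at means of 1.68 ± 1.90 and 3.25 ± 1.90. For btg2, whose product recruits the deadenylase that removes poly(A) tails, the shares were 37.6% (30.8 to 44.9%) and 66.7% (54.6 to 77.3%). The gene phlda2 (ENSDARG00000042874) encodes a small pleckstrin homology domain protein and is also on the list of iridophore differentiation. It was detected in 51.5% of c1 cells and 75.0% of c5 cells, at levels of 3.19 ± 1.72 and 4.35 ± 1.34 in the cells that had it. The survival gene mcl1a, of the BCL2 family, went from 35.6% to 54.2%. Paralogs of these genes differed less, with a difference of 0.46 for ier2b, 0.28 for btg1 and 0.14 for mcl1b. The growth arrest gene gadd45ba, at -0.07, was the lowest of the list.

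Of 26 inhibitors of the signals themselves in the table, 9 passed the filter. Of these, 4 were higher in c5 by 0.5 or more (3.58% of all genes were). The median difference of the 9 was 0.44, and socs1a, spred1 and spry4 passed through c5 alone. Over members with 10% of cells in both clusters the median was 0.57, and with a limit of 5% in either it was 0.30. The gene socs3a (ENSDARG00000025428), a suppressor of cytokine signalling through JAK and STAT proteins, was detected in 37.6% of c1 cells (30.8 to 44.9%) and 66.7% of c5 cells (54.6 to 77.3%). Its means were 1.06 ± 1.60 and 2.41 ± 2.03. A related suppressor, socs1a, was detected in 5.67% of c1 cells (2.86 to 9.92%) and 22.2% of c5 cells (13.3 to 33.6%). The gene nfkbiab, for an inhibitor that holds NF-kB in the cytoplasm, had shares of 24.2% and 47.2%. The kinase gene sik1, which cAMP induces in mammals, was detected in 33.0% of c1 cells (26.4 to 40.1%) and 63.9% of c5 cells (51.7 to 74.9%), while its level in expressing cells was 2.50 ± 1.16 and 2.39 ± 1.27. The MAP kinase phosphatase gene dusp1 had shares of 10.3% and 25.0% and a difference of means of 0.36. The remaining members that passed were socs3b, nfkbiaa, spred1 and spry4, with differences of 0.44, 0.40, 0.30 and 0.23. Of the 17 other genes on the list, none of which passed the filter, dusp7 stood lowest with 9.28% of c1 cells and 2.78% of c5 cells.

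Several further genes past 0.5 encode transcription factors of stress and growth. The gene atf4b (ENSDARG00000038141), for a factor of the integrated stress response, was detected in 44.3% of c1 cells and 63.9% of c5 cells, at means of 1.19 ± 1.58 and 2.16 ± 1.81. The endoplasmic reticulum stress factors xbp1 and ddit3 had differences of 0.92 and 0.55. Of 29 genes of folding and secretion in the endoplasmic reticulum, these 3 alone were past 0.5 (3.58% of all genes were in c5). The median of the 29 was 0.04, and the chaperone genes hsp90b1 and pdia3 differed by 0.14 and 0.33. The hypoxia factor gene hif1ab went from 13.9% (9.38 to 19.6%) to 37.5% (26.4 to 49.7%) and mycb, for a Myc factor, from 23.2% to 41.7%. The heat shock gene hsp70l was rare, with 4.12% of c1 cells and 11.1% of c5 cells, and passed the filter through c5 alone. In the list of 13 chaperone and heat shock genes the 3 past 0.5 (3.58% of all genes were in c5) all encode ubiquitin.

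The ubiquitin genes ubb, UBB and ubc are nearly identical copies, and reads may have been split among them, so their values are uncertain one by one. The gene listed as UBB (ENSDARG00000002369) was detected in 39.2% of c1 cells (32.3 to 46.4%) and 73.6% of c5 cells (61.9 to 83.3%), the second widest gap in share. Its level in expressing cells was 2.67 ± 1.40 in c1 and 2.53 ± 1.24 in c5. The difference of means was 0.87 for ubb and 0.56 for ubc. Proteasome subunits, which degrade ubiquitin-tagged proteins, had a median difference of 0.10. Of 16 such genes, 13 were higher in c5 (as were 1045 of all 1706), and none was past 0.5.

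Further genes higher in c5 were of mixed function. The gene sdc4, for the matrix receptor syndecan 4, had means of 2.07 ± 1.80 in c1 and 2.96 ± 1.80 in c5. The peptidase gene ace (ENSDARG00000079166), for angiotensin-converting enzyme, was detected in 29.4% of c1 cells (23.1 to 36.3%) and 58.3% of c5 cells (46.1 to 69.8%). Its level in expressing cells was 2.35 ± 1.07 in c1 and 2.43 ± 0.99 in c5, so nearly all of its difference of 0.73 lay in the share. The retinol dehydrogenase gene rdh10a (ENSDARG00000058730), for an enzyme that makes retinal from retinol, went from 18.6% (13.3 to 24.8%) to 40.3% (28.9 to 52.5%). For igfbp1a, which encodes a binding protein of insulin-like growth factors, the shares were 20.6% and 40.3%. The adhesion genes ctnnb1 (beta-catenin) and cdh11 (a cadherin) were detected in 20.1 and 26.3 points more of c5 cells. In cdh11 the level of expressing cells was lower in c5, 2.02 ± 1.18 against 2.41 ± 1.27. The receptor tyrosine kinase gene ret had means of 1.48 ± 1.71 and 2.11 ± 1.88. The gene si:ch73-335l21.4 (ENSDARG00000091234), which has no descriptive name in the reference, had means of 0.77 ± 1.36 and 2.34 ± 2.12.

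Of the 9 genes of neural crest fate that passed the filter, 4 were higher in c5 (as were 1045 of all 1706). Their median was -0.02, against 0.05 over all genes. The member past 0.5 was snai1a, for a Snail repressor of cadherin genes, at 0.51. The crest factors sox10 and foxd3 differed by 0.34 and 0.17. Of the 5 genes of nonmuscle myosin II, the light chain gene myl12.1 was past 0.5, at 0.59. The water channel gene aqp1a.1 stood at 0.59 too, and the calcium-binding S100 gene s100v2 at 0.61.

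Keratin genes were among those higher in c5. The type II keratin gene krt8 had means of 2.36 ± 1.77 in c1 and 2.92 ± 1.70 in c5. For krt18 (krt18a.1 in the reference names) they were 0.67 ± 1.41 and 1.41 ± 1.87, and for zgc:77517 (krt18b there) 2.39 ± 1.90 and 3.17 ± 1.74. Keratins 8 and 18 pair in simple epithelia. Of the 23 keratinocyte genes in the table, 3 passed the filter (krt8, s100a10b and icn), all with a higher mean in c5 than in c1 (as had 1045 of all 1706). In c3 the means of krt8, s100a10b and icn were 2.90, 2.35 and 1.86. The summed mean of the 23 was 7.08 in c1, 8.51 in c5 and 7.74 in c3. The genes that define skin keratinocytes were near 0, since krt5 and epcam were detected in 1.03% and 2.58% of c1 cells and in 0 of 72 c5 cells, and tp63 in 5.15% and 1.39%. No Schwann cell gene was past 0.5. The genes mpz, pmp22b, mbpb and cnp had differences of 0.16 to 0.28, with mpz and mbpb passing through c5 alone, and the summed mean over 9 genes was 1.67 in c1 and 2.54 in c5. The myelin genes plp1a and mbpa were detected in 1.39% and 0 of 72 c5 cells. Over the 25 dermal fibroblast genes the summed mean was 2.47 in c1 and 2.73 in c5, over the 22 immune genes 0.54 and 0.57, and no gene of the endothelial, erythrocyte or muscle lists passed the filter. The part of these genes in the other differences was not tested.

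How a gene differed was split between how many cells had it and how much those cells had. In 55 of the 61 genes higher in c5 the share of cells gave the larger part, and in 6 (fosab, sdc4, itm2ba, fhl2a, krt8 and rpl11) the level did. In 8 of the 11 genes higher in c1 the share gave the larger part, and in 3 (lypc, lgals2a and tmsb4x) the level did. The 8 include zgc:110699 and rgs16, found in no c5 cell, whose whole difference was counted as share by rule. They also include rgs4 and rdh5, whose level in c5 rests on very few cells. The same split was not counted over all compared genes. Whether a larger part from the share is more frequent in these genes than in the others was thus not tested. Genes such as sik1, calm1a (calmodulin) and tfpia (an inhibitor of coagulation) had nearly the same level in the expressing cells of both clusters, with level differences of -0.11, 0.04 and 0.00. By level alone, fosab led with 2.04, and the next 5 were hdgfl2, psmb1, id2a, si:ch211-198a12.6 and ier2b with 1.33 to 1.91. In c5 these 5 rested on 10 to 16 expressing cells. At the other end stood stx6, ankrd12, dctn3, MYL6, thy1 and pfn2, with -1.02 to -1.11 and 10 to 18 expressing cells in c5.

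**Figure D3:**
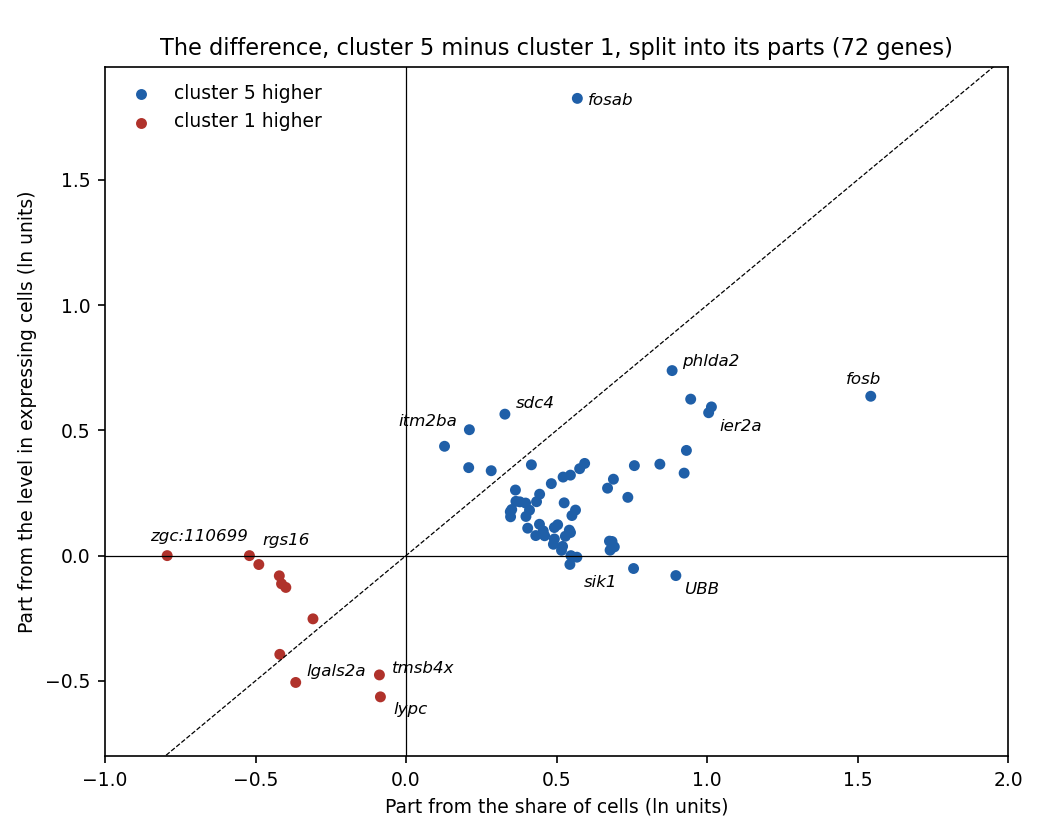
Difference of means over all cells (c5 minus c1) for the 72 genes past 0.5, split into the part from the share of cells (horizontal axis) and the part from the level in expressing cells (vertical axis), in ln units. On the dashed line both parts are equal. Most points lie nearer the horizontal axis, while fosab lies high at 1.83, and zgc:110699 and rgs16, found in no c5 cell, lie on the axis because a level in c5 does not exist for them.

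The 11 genes higher in c1 were mixed in function, and their differences were smaller. The galectin gene lgals2a (ENSDARG00000054942), for a lectin that binds beta-galactosides, had the largest, with 90.7% of c1 cells (85.7 to 94.4%) and 81.9% of c5 cells (71.1 to 90.0%) and means of 4.05 ± 2.05 and 3.18 ± 1.99. The rest of the 11 included CT027638.1 (si:dkey-153m14.1 in the reference names), detected in 59.8% of c1 cells and 44.4% of c5 cells, and ccng1, for cyclin G1, in 43.3% and 30.6%. Of the other galectin genes that passed, lgals3a was detected in 12.4% of c1 cells and 2.78% of c5 cells, and lgals1l1 was detected in 17.5% of c1 cells (12.5 to 23.6%) and 4.17% of c5 cells (0.868 to 11.7%). The gene lypc (ENSDARG00000097804) encodes a Ly6 domain protein abundant in iridophores. It was detected in all 194 c1 cells at 6.40 ± 0.30 and in 71 of 72 c5 cells at 5.84 ± 0.46, and the SD in c1 was the smallest of the 13 genes detected in 95% or more of the cells of both clusters. Without the single c5 cell that lacked it, the difference in lypc was thus -0.57 in place of -0.65. Cluster c3 is the iridophore cluster that the study ascribes mostly to interstripes. In c3 lypc had 5.38 ± 0.60, so c1 lay above both c3 and c5.

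Of 12 genes of iridophore differentiation that passed the filter, 9 were lower in c5 (as were 661 of all 1706) and 3 higher. Their median was -0.12, against 0.05 over all genes. Past 0.5 were phlda2 and fhl2a in c5 (3.58% of all genes were) and lypc in c1 (0.645% of all genes were). Other abundant products of the cells were alike in c1 and c5. The means of apoda.1 (apolipoprotein D) were 5.25 ± 1.15 and 5.41 ± 0.80, those of defbl1 (a beta-defensin-like gene) were 4.89 ± 1.36 and 4.85 ± 1.17, and those of the kinase anchor gene akap12a were 5.36 ± 1.38 and 5.24 ± 1.49. The feature NC_002333.4, which bears the accession of the mitochondrial genome, was detected in every cell of both clusters at 8.16 ± 0.46 and 8.10 ± 0.39.

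Some genes were detected in c1 cells and were nearly missing from c5. The gene zgc:110699 (ENSDARG00000017474) was detected in 46 of 194 c1 cells (23.7%, 17.9 to 30.3%) and in 0 of 72 c5 cells (0 to 4.99%). The regulator of G protein signalling rgs16 (ENSDARG00000040177), whose product speeds the GTP hydrolysis of G protein alpha subunits, was detected in 32 c1 cells (16.5%, 11.6 to 22.5%) and in 0 of 72 c5 cells. Its relative rgs4 (ENSDARG00000070047) was detected in 33 c1 cells (17.0%) and in 2 c5 cells (2.78%, 0.338 to 9.68%). These were the only 2 of the 4 rgs genes passing the filter that were past 0.5, and both passed through c1 alone. The gene rgs5b, at 0.20, passed through c5 alone, so in these genes the direction follows from the filter. Only rgs3a reached 10% in both clusters, and it differed by -0.03. The retinol dehydrogenase gene rdh5 (ENSDARG00000008306), whose mammalian counterpart acts on 11-cis retinol in the visual cycle, was detected in 19.6% of c1 cells (14.2 to 25.9%) and 2.78% of c5 cells (0.338 to 9.68%). It thus ran opposite to rdh10a, but rdh5 passed through c1 alone, so its direction follows from the filter. The same holds for zgc:110699. The cellular retinoic acid binding protein gene crabp2a was the only other retinoid gene to pass, with 20.1% and 18.1%.

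A pair of junction genes, tjp1a and jam3b, also had a low share in c5. The tight junction scaffold gene tjp1a (ENSDARG00000077506) was detected in 19.6% of c1 cells (14.2 to 25.9%) and 2.78% of c5 cells (0.338 to 9.68%), and the junctional adhesion gene jam3b (ENSDARG00000061794) in 23.7% (17.9 to 30.3%) and 6.94% (2.29 to 15.5%). Both are needed for the normal stripe pattern in zebrafish. The synaptic vesicle gene SYNPR, for synaptoporin, had the same shares as jam3b. Of the 5 membrane protein genes of pigment patterning that passed, which include tjp1a and jam3b, 4 did so through c1 alone. The water channel gene aqp3b was detected in 10.8% of c1 cells and 6.94% of c5 cells (35.2% in c3), and its relative aqp3a in 23.2% and 25.0%. Of the 13 junction and adhesion genes that passed, 6 were higher in c5 (as were 1045 of all 1706) and 7 lower. Their median was -0.02, against 0.05 over all genes.

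For most of these genes, the level in the c1 cells that had them was close to that of c3 cells. The share for rgs4 was 53.3% in c3 (44.0 to 62.4%) against 17.0% in c1, while expressing cells had 3.40 ± 1.26 and 3.45 ± 1.29. For rdh5 the shares were 49.2% in c3 and 19.6% in c1, with levels of 2.95 ± 1.15 and 2.96 ± 1.26. For tjp1a they were 44.3% and 19.6%, with levels of 2.73 ± 1.24 and 2.71 ± 1.58. The same held for zgc:110699 (3.15 ± 1.33 in c3 and 3.35 ± 1.17 in c1), for rgs16 (3.07 ± 1.17 and 3.15 ± 1.52) and for jam3b (2.62 and 2.77), whereas lgals1l1 was lower in the c1 cells that had it (2.78 ± 1.58) than in those of c3 (3.31 ± 1.59). The shares in c1 thus lay between those of c5 and c3 for each of these genes. Each of them passed the filter through c1 alone, so a share higher in c1 than in c5 follows from the filter. Only the order of c1 and c3 does not. Levels in c5 rested on 0 to 5 cells and were not compared. For rdh10a and ace the order of shares was reversed, with 9.02% and 17.2% in c3. Whether the same c1 cells carried these genes was not analysed here, because the table gives no values per cell. The middle place of c1 did not hold throughout the Fos and Jun genes. The c3 shares of fosb, jun, junbb, jdp2b and fosl1a (45.1%, 54.9%, 44.3%, 44.3% and 14.8%) lay above those of c1 and below those of c5. For fosab and junba they were below c1, at 79.5% and 33.6%, and for jund above both clusters, at 13.1%. The c1 and c3 intervals overlapped for each of these Fos and Jun genes.

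**Figure D4:**
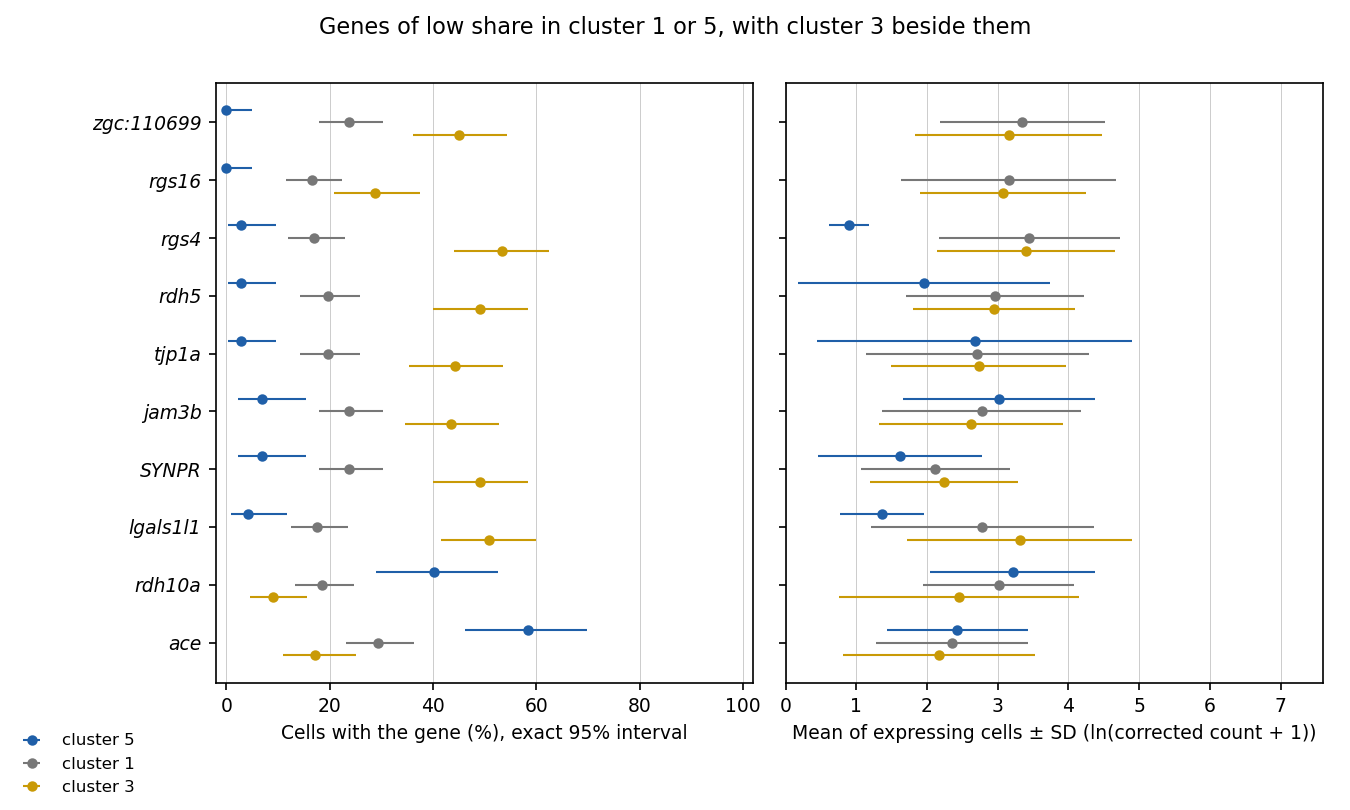
Share of cells with 10 genes (left, exact 95% intervals) and mean of expressing cells ± SD in ln(corrected count + 1) (right) in c5 (blue), c1 (grey) and c3 (yellow). For the 8 upper genes the share is lowest in c5. They passed the filter through c1 alone, so a share lower in c5 than in c1 follows from the filter. The levels of c1 and c3 nearly coincide for rgs4, rdh5 and tjp1a. The c5 levels of rgs4, rdh5 and tjp1a rest on 2 cells each.

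Genes paired by symbol could go opposite ways. Among 77 pairs of genes whose symbols differ only in a last a or b, 34 had opposite signs. The pairs were matched by symbol alone, and some, such as eif5a with eif5b, are not paralogs. In 2 of these a member was past 0.5. Of all 1706 genes, 1045 were higher in c5 and 661 in c1, so unrelated genes often have opposite signs too. Their share was not computed, and the count of 34 says nothing particular about paralogs. The cytolinker gene pleca, whose product ties intermediate filaments to other structures, was detected in 64.9% of c1 cells and 80.6% of c5 cells (means 2.03 ± 1.91 and 2.87 ± 1.85), while its paralog plecb was detected in 49.0% and 37.5% (means 1.40 ± 1.80 and 1.03 ± 1.62). The LIM domain gene fhl2a had means of 4.58 ± 1.93 and 5.21 ± 1.54, and fhl2b was detected in 18.6% of c1 cells (13.3 to 24.8%) and 8.33% of c5 cells (3.12 to 17.3%). No pair had both members past 0.5 in opposite directions, and the pairs junba with junbb and ptmaa with ptmab (prothymosins) had both past 0.5 in c5.

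Genes of general cell function differed little in size. Of 81 cytosolic ribosomal protein genes, 56 were lower in c5 (as were 661 of all 1706) and 25 higher. Their median was -0.08, against 0.05 for all genes. One was past 0.5 on each side (of all genes, 0.645% were in c1 and 3.58% in c5). These were rpl8 at -0.52 (87.6% of c1 cells, 82.2 to 91.9%, and 73.6% of c5 cells, 61.9 to 83.3%) and rpl11 at 0.56. The summed mean of the ribosomal genes was 149 in c1 and 143 in c5. The 30 translation factors and the 45 nuclear genes of oxidative phosphorylation had medians of 0.08 and 0.00, and ndufa4l, related to a subunit of cytochrome c oxidase, was the only one of either list past 0.5, with 35.1% of c1 cells and 19.4% of c5 cells. The 13 genes of purine synthesis and salvage, which supplies the crystals, ran from -0.29 (atic) to 0.47 (mthfd1l) with a median of 0.04. Among 38 actin genes, the monomer-binding tmsb4x stood at -0.56 and the profilin pfn2l at 0.64. The lists of glycolysis, vacuolar ATPase, Rab GTPases, motors, tubulins, solute carriers, splicing factors and histones held no gene past 0.5.

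**Figure D5:**
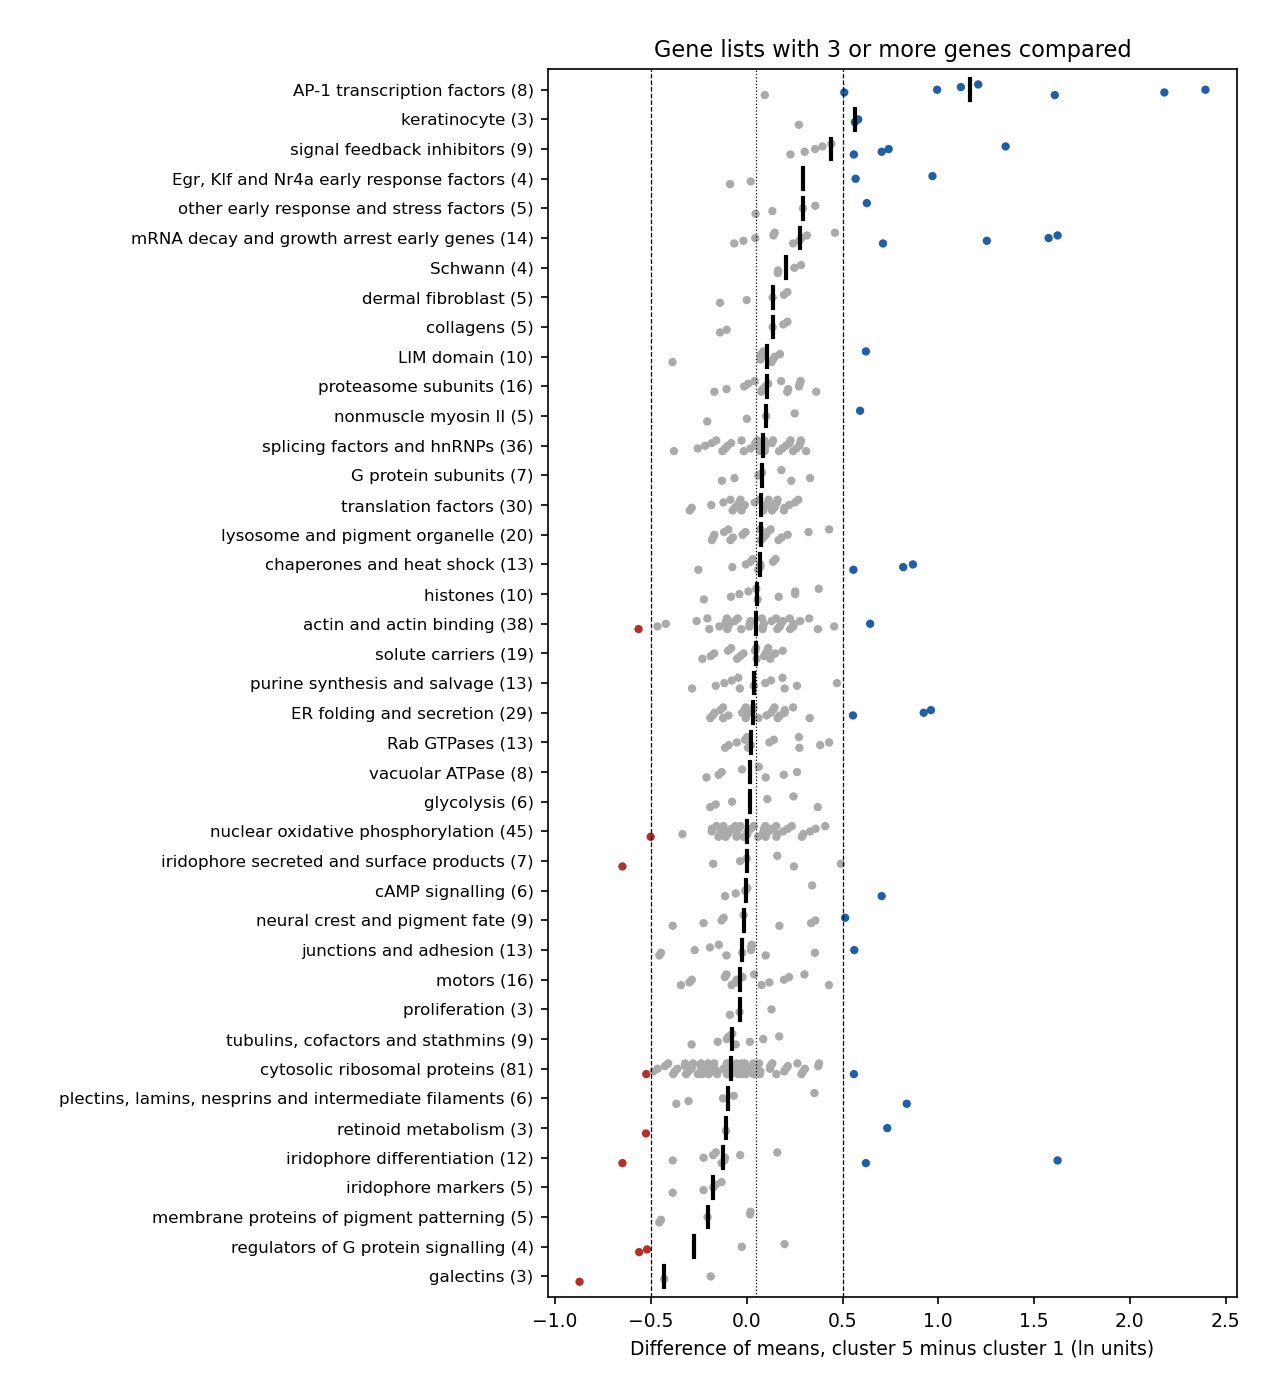
Difference of means (c5 minus c1, ln units) of each compared gene in the 41 lists with at least 3 such genes, whose number is given in brackets. Black bars are list medians, dashed lines mark a difference of 0.5 either way and the dotted line the median of 0.05 over all 1706 genes. The Fos and Jun list stands at the right with a median of 1.16, the galectins, of which all but lgals2a passed through c1 alone, at the left with -0.43, and most lists lie near 0.

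Some of the genes that differed lie next to each other or with 1 gene between them. In the gene order of RefSeq for the assembly GRCz12tu, matched by symbol, 1551 compared genes were placed, 64 of them past 0.5, and 270 pairs had at most 1 protein-coding gene between them. In 4 of these pairs both genes were past 0.5, and always in the same direction. Adjacent were junba with the peroxiredoxin gene prdx2, and the cold-inducible cirbpb with midn. With 1 gene between were fosab with jdp2b, and rgs4 with rgs16. Both rgs genes passed the filter through c1 alone, so their shared direction follows from the filter. Over all compared genes, 61 were past 0.5 in c5 and 11 in c1, so a shared direction is frequent among genes past 0.5. The gene midn, whose mammalian product hastens the breakdown of early gene proteins, was detected in 21.6% of c1 cells (16.1 to 28.1%) and 51.4% of c5 cells (39.3 to 63.4%).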

How the data were processed

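Per the labels and the study's methods, single cells were sorted into plates and transcripts were counted by molecular identifiers. The submitters' processing notes name bcl2fastq 2.20, STAR and the build GRCz11. The authors filtered cells, corrected counts with SCTransform and clustered the cells in Seurat. They deposited 1 table of 19914 features with the percent of cells above 0 in each of 5 clusters, and the mean and SD of those cells as natural log values of the corrected count plus 1. It pools all 8 plates. A second deposited table, the authors' own comparison of c5 with c3 (fold changes and p-values), was not used. By the methods mitochondrial features were removed, yet NC_002333.4 is listed. Depth per cell was not used here.

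Means and SDs over all cells were rebuilt from these columns and tested on simulated data (Python 3.11.15, pandas 2.3.3, scipy 1.17.1). The difference of means was split into a part for the share of cells, taken at the average level of the expressing cells of both clusters, and the remainder. Where a cluster had 0 cells with the gene, the whole difference was counted as share. Genes in 10% or more of cells of either cluster were compared. Sizes of 0.5 (mean), 15 points (share) and 0.75 (level, at least 10 expressing cells in each cluster) marked a difference. The rule for named genes took the 15 highest and 15 lowest by mean, 8 each way by share and 6 each way by level. It also took the iridophore markers and up to 6 members of each of 47 gene lists (all of lists with up to 8). Opposed pairs of symbols ending in a and b were named too. Further genes were named after their values were seen, as were the neighbouring pairs and the split into parts. The members and lists were chosen with earlier results of these data known. Misplaced symbols (kinases and methyltransferases) were removed from the translation factor and tubulin lists by name. Of the identifiers, 18929 were found in the reference names. Beside 0 cells stands the exact interval, where one is given. Alternatives were other limits on the share of cells, larger sizes, and differences centred on their median.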

Additional observations from a re-analysis of the deposited data

How the results depend on the processing

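With a limit of 5% of cells of either cluster, all 6 counts of genes were as reported. For share and level this follows from the rules, since a gene below 10% of cells in both clusters cannot meet them. By mean, such a gene would need a very high level in its expressing cells. The unchanged counts at 5% therefore do not test the filter. With a limit of 25%, the counts by mean, share and level in favour of c5 were 60, 48 and 16, and in favour of c1 7, 8 and 3. With a limit of 10% in both clusters, 7 genes were higher in c1 by mean and 8 by share. Centring the differences on their median gave 17 and 27 in favour of c1, beside 51 and 37 in favour of c5. With sizes 1.5 times as large, the counts by mean, share and level were 21, 18 and 13 in favour of c5 and 3, 1 and 0 in favour of c1. The list medians that moved by more than the spread of their members were, at 5%, other early response and stress factors (0.0453) and keratinocyte genes (0.0744). At 25% they were cAMP signalling (0.34), motors (-0.30), Rab GTPases (0.27), retinoid metabolism (0.73), galectins (-0.87) and folding and secretion in the endoplasmic reticulum (0.74), and with 10% in both clusters galectins (-0.87). These follow from fewer or more members passing. The medians of 4 of 44 lists changed sign at 5%, of 9 of 41 at 25%, of 8 of 42 with 10% in both clusters and of 9 of 44 when centred, all of them at most 0.20 in size as reported.

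Leaving out a plate was not possible, since the table pools them. No paired analysis was possible because the columns carry no replicate numbers. Counting error limits shares in c5, with 72 cells, more than in c1, with 194 cells. In c5 the exact interval for 0 cells reaches 4.99%.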
